A study of Mus musculus with 38 samples.

Results

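The genes described here are 10 markers of the choroid plexus, the epithelium in the brain ventricles that secretes cerebrospinal fluid and forms the barrier between blood and that fluid. Its cells pump ions and water across their apical membrane, carry hormones, vitamins and nutrients into the fluid, and release proteins of their own. Most genes named below are also read in other tissues, among them Ttr and F5 in hepatocytes and Aqp1 in red blood cells. The members are Ttr, F5, Folr1, Kl, Kcne2, Slc4a5, Aqp1, Clic6, Calml4 and Otx2, 10 of the 18820 genes that a probe with a single gene symbol measured. Each of the 10 was named by exactly 1 probe, so no choice among probes was needed.

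Affymetrix arrays measured expression in mice of the inbred strain C57BL/6J that had carried a slow-release pellet for 30 days. Brain arrays came from 10 mice on haloperidol, an antipsychotic and dopamine D2 receptor blocker, and 10 mice on placebo, and the whole brain was used. Liver arrays came from 9 haloperidol and 9 placebo mice. The labels name no genotype beyond the strain, and the sources used here give neither age nor sex. Each array is called by the digit and letter in its title, such as placebo 1L. Levels are the authors' normalized values on a log2 scale, so a difference of 1 doubles the linear value, and every change is haloperidol minus placebo. In whole brain, fewer choroid plexus cells and less RNA per cell cannot be told apart.

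Checked against the brain arrays, all 10 members lay above the limit of 5.52 under which the dimmest 33.3% of genes were left out. The arrays themselves were not alike. The median over all probes of an array was 6.19 ± 0.072 with haloperidol (SD, n = 10, range 6.08 to 6.33) and 6.33 ± 0.044 with placebo (SD, n = 10, range 6.27 to 6.40). Pituitary and liver transcripts stood out on single arrays. Gh, the growth hormone gene, read 10.45 in haloperidol 1R, 10.19 in haloperidol 2N, 7.26 in haloperidol 3B, 11.49 in placebo 1L and 8.28 in placebo 2R, against a median of 5.15 over the 20 brain arrays. Alb, the albumin gene, read 11.11 in haloperidol 4T and no more than 4.51 on any other brain array. Results below are given with and without placebo 1L. That array was singled out beforehand because it was known to be low in several of the members.

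Promoter windows from RefSeq (build GRCm38.p6) ran from 250 bases before to 50 bases after a transcript start. For 7 of the 10 members 11 windows were used, and none was used for Ttr, Folr1 or Clic6. These windows were searched on both strands for TAATCC, the core bound by OTX2-class homeodomain proteins, and for TATAAA, the TATA box. The first 3 sequences are those of Calml4 and Kcne2, whose values varied together over the brain arrays, and the last is the window of Otx2 that holds the homeodomain core, in capitals as read on the opposite strand.
Calml4, chr9:62857854-62858153, plus strand: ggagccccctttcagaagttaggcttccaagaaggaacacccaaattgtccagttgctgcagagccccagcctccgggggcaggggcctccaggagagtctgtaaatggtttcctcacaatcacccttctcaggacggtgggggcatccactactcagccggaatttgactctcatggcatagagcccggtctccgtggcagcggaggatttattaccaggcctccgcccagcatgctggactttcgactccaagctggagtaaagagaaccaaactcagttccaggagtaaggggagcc
Kcne2, chr16:92292139-92292438, plus strand: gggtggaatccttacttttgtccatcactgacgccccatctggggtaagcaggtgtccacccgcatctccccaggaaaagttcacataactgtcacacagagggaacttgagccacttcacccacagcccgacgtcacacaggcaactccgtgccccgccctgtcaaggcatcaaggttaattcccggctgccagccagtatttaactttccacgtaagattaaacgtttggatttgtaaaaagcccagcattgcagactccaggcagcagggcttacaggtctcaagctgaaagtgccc
Kcne2, chr16:92295366-92295665, plus strand: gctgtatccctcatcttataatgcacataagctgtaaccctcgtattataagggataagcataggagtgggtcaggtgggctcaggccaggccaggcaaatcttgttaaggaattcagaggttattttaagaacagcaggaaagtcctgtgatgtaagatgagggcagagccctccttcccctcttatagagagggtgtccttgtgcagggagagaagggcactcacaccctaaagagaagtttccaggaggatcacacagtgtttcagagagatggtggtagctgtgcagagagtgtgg
Otx2, chr14:48665060-48665359, minus strand: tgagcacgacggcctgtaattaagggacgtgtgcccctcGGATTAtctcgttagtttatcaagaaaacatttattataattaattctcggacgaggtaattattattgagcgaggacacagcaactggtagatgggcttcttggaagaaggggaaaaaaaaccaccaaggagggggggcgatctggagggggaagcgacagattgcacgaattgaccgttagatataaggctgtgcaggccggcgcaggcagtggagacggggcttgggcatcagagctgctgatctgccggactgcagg
The Calml4 window and both Kcne2 windows held neither motif. TAATCC was in 1 of the 11 windows, that of Otx2 at -211 from the start, and in 7.06% of all 32851 RefSeq windows of this length. TATAAA was in 2 of the 11, at -192 in another Otx2 window and at -127 in the Slc4a5 window, and in 13.6% of all windows. A match is a run of letters and not a binding site.

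In brain, 2 of the 10 members passed limma's test of haloperidol against placebo, both higher, and 0 were lower. Calml4 was 1.72-fold higher and Kcne2 1.35-fold higher on the scale of the linear values. Among all 12547 genes tested, 15.2% were called higher and 15.2% lower, so a count of 2 in 10 was near the background. The median change was 0.13 over the members and -0.02 over all genes tested. Without placebo 1L, 1 member, Calml4, was called higher and 0 lower, against 13.3% higher and 13.8% lower of all genes, and the members' median change was 0.02. The question behind the comparison, from the study's design, is what chronic haloperidol does to expression in brain and liver.

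**Figure D1:**
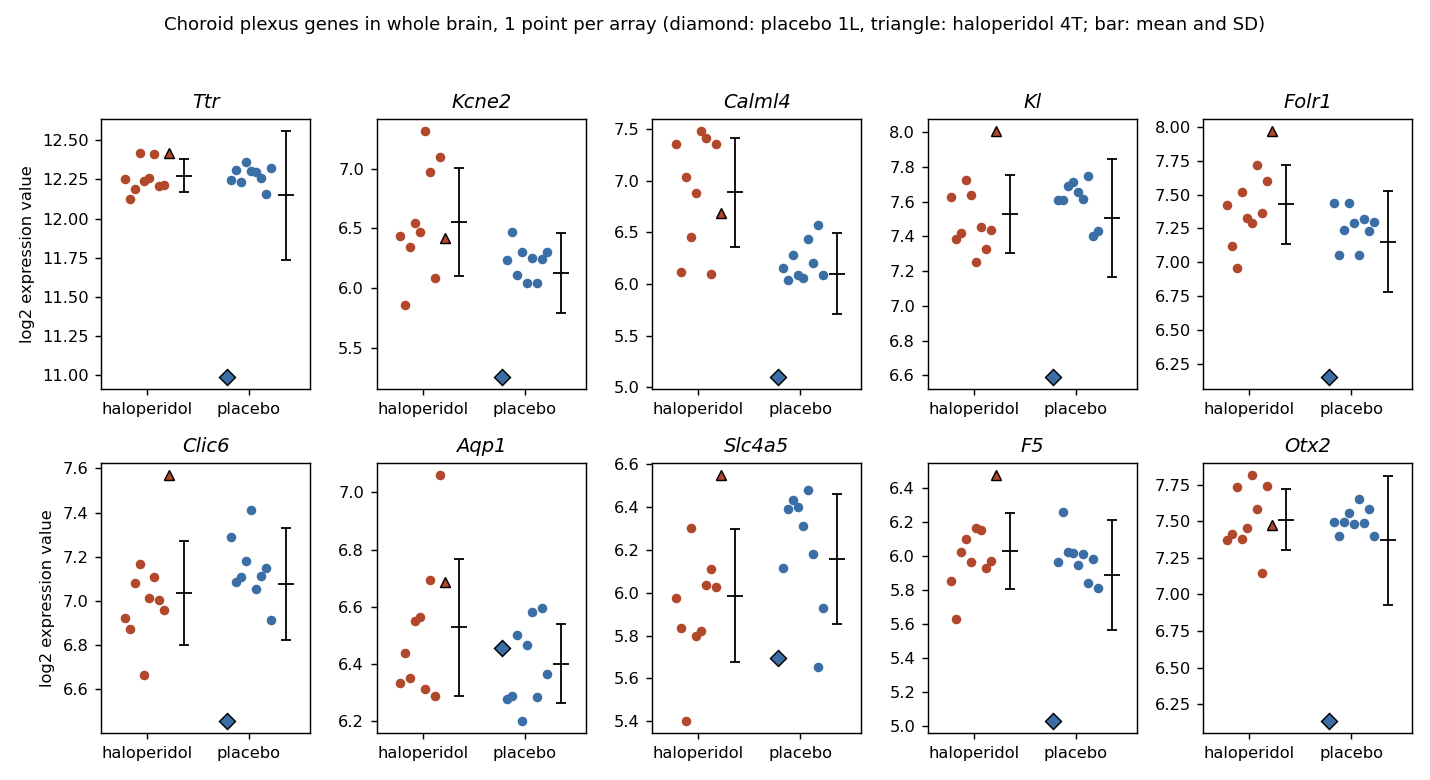
Log2 expression value of each choroid plexus gene in whole brain, 1 point per array, haloperidol left and placebo right, with the mean and SD as a bar (n = 10 each) and a separate vertical scale for each gene. The diamond, placebo 1L, is the lowest of all 20 arrays for 8 of the 10 genes, and the triangle, haloperidol 4T, is the highest for 6.

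Calml4 encodes a calmodulin-like protein known from the adhesion complex between microvilli of brush borders. Its 10 haloperidol brains read 7.35 in 1B, 6.12 in 1R, 7.03 in 2L, 6.45 in 2N, 6.88 in 2T, 7.48 in 3B, 7.41 in 3R, 6.10 in 4L, 7.35 in 4N and 6.68 in 4T. The placebo brains read 5.10 in 1L, 6.16 in 1N, 6.04 in 1T, 6.28 in 2B, 6.09 in 2R, 6.06 in 3L, 6.43 in 3N, 6.20 in 3T, 6.57 in 4B and 6.09 in 4R. Of the haloperidol arrays, 7 of 10 lay above the highest placebo array, while 1R, 2N and 4L lay among the placebo arrays. Calml4 averaged 6.89 ± 0.53 (SD, n = 10) with haloperidol and 6.10 ± 0.39 (n = 10) with placebo, a change of 0.79 (SE 0.19, limma adjusted p = 0.00603). Without placebo 1L the change was 0.67 (SE 0.17, adjusted p = 0.0101), and leaving out any 1 of the 20 arrays gave 0.67 to 0.87 with adjusted p of 0.00114 to 0.0138. The call was lost with the array median as a covariate, at 0.36 (SE 0.27, adjusted p = 0.919), and with the first principal component as a covariate, at 0.10 (SE 0.15, adjusted p = 0.900). Since the array medians themselves differed between the treatments, an array-wide difference and an effect of haloperidol cannot be told apart in those fits.

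Kcne2 encodes a small subunit that sets the gating of potassium channels, at the apical membrane of the choroid plexus among other places. In haloperidol brains it read 6.44 in 1B, 5.86 in 1R, 6.35 in 2L, 6.54 in 2N, 6.47 in 2T, 7.32 in 3B, 6.97 in 3R, 6.08 in 4L, 7.10 in 4N and 6.42 in 4T. In placebo brains it read 5.26 in 1L, 6.23 in 1N, 6.47 in 1T, 6.11 in 2B, 6.30 in 2R, 6.04 in 3L, 6.25 in 3N, 6.04 in 3T, 6.24 in 4B and 6.30 in 4R. Arrays 3B, 3R and 4N stood above the rest, 4 of 10 haloperidol arrays exceeded every placebo array, and the groups otherwise overlapped. The means were 6.55 ± 0.45 (SD, n = 10) with haloperidol and 6.12 ± 0.33 (n = 10) with placebo, a change of 0.43 (SE 0.16, limma adjusted p = 0.0467). Without placebo 1L it was 0.33 (SE 0.14, adjusted p = 0.0838), past the threshold no longer. When each array was left out in turn, the call was kept in 6 of 20 fits, and the adjusted p ran from 0.0124 to 0.0953. With the array median as a covariate the change was -0.070 and with the first component -0.13, neither of them called.

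**Figure D2:**
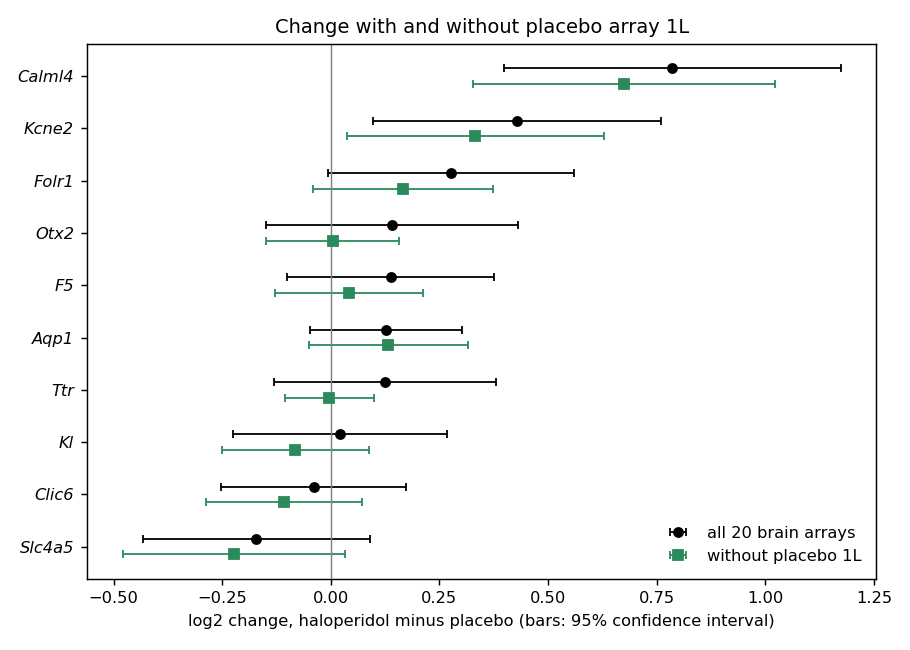
Log2 change in brain, haloperidol minus placebo, for each choroid plexus gene from limma, with its 95% confidence interval, for all 20 arrays (black) and without placebo 1L (green). The intervals of Calml4 lie above 0 in both fits, and the changes of Ttr and Otx2 move to about 0 without placebo 1L.

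Of the secreted and binding proteins, Ttr encodes transthyretin, the carrier of thyroid hormone and retinol that choroid plexus and liver release. The haloperidol brains ranged from 12.12 to 12.42 with a median of 12.24, and the placebo brains from 10.99 to 12.36 with a median of 12.28. All arrays but placebo 1L lay within that upper band, and the groups overlapped. Ttr averaged 12.27 ± 0.11 (SD, n = 10) with haloperidol and 12.15 ± 0.41 (n = 10) with placebo, a change of 0.12 (SE 0.12, limma adjusted p = 0.449). Without placebo 1L the change was -0.0039 with a 95% interval of -0.11 to 0.099.

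F5 encodes coagulation factor V, made in the liver and also read in choroid plexus. Its haloperidol brains ranged from 5.63 to 6.48 with a median of 6.00, and its placebo brains from 5.03 to 6.26 with a median of 5.97. Array 4T was the highest and placebo 1L the lowest, and the other arrays overlapped. The change was 0.14 (SE 0.11, limma adjusted p = 0.365), and 0.042 (adjusted p = 0.718) without placebo 1L.

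Folr1 encodes the folate receptor that carries folate into the cerebrospinal fluid. It read 6.96 to 7.97 in haloperidol brains with a median of 7.40, and 6.16 to 7.44 in placebo brains with a median of 7.26. Of the haloperidol arrays, 4 of 10 exceeded the highest placebo array, and 4T was the highest of them. The change was 0.28 (SE 0.14, limma adjusted p = 0.122), and 0.17 (adjusted p = 0.213) without placebo 1L. Kl encodes klotho, a co-receptor for the hormone FGF23 that is also shed from the cell surface. It ranged from 7.25 to 8.01 with haloperidol with a median of 7.44, and from 6.59 to 7.75 with placebo with a median of 7.61. Its mean change was 0.02 (limma adjusted p = 0.908) and -0.08 (adjusted p = 0.462) without placebo 1L, and its sign also turned without haloperidol 2N or 4T.

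Among the ion and water transport genes, Slc4a5 encodes a sodium bicarbonate cotransporter of the apical membrane. Its haloperidol brains ranged from 5.40 to 6.55 with a median of 6.00, and its placebo brains from 5.65 to 6.48 with a median of 6.25. Of the haloperidol arrays, 8 of 10 lay below the placebo median, yet 4T was the highest of all 20 arrays. The change was -0.17 (SE 0.13, limma adjusted p = 0.299), and -0.22 (SE 0.12, adjusted p = 0.174) without placebo 1L. Weighting the arrays by their quality gave -0.29 (adjusted p = 0.0496), past the threshold. With the array median as a covariate the change was -0.47 (SE 0.18, adjusted p = 0.919).

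Aqp1 encodes the water channel of the apical membrane. It read 6.29 to 7.06 in haloperidol brains with a median of 6.50, and 6.20 to 6.60 in placebo brains with a median of 6.41. Haloperidol 4N was the highest array at 7.06, and placebo 1L, at 6.46, lay in the middle of its group. The change was 0.13 (SE 0.084, limma adjusted p = 0.249), 0.13 without placebo 1L and 0.068 without haloperidol 4N. Alas2, an enzyme gene of haem synthesis in red cells, was 0.85 higher with haloperidol (SE 0.11, adjusted p = 0.00105), and the red cell list, of which 3 of 10 genes had a probe, averaged 5.59 to 6.32 per haloperidol array and 5.06 to 5.55 per placebo array. Whether red cells had a part in the Aqp1 values was not tested.

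Clic6 encodes a member of the chloride intracellular channel family. It ranged from 6.67 to 7.57 with haloperidol and from 6.46 to 7.41 with placebo, with overlap throughout apart from 4T at the top and placebo 1L at the bottom. The change was -0.04 (SE 0.10, limma adjusted p = 0.784), and -0.11 (adjusted p = 0.349) without placebo 1L. Clic6 and Kcne2 lie in the same stretch of chromosome 16 in GRCm38.p6, at 92498147 to 92541241 and 92292389 to 92298133, and over the 19 arrays without placebo 1L their values had a Pearson r of -0.14.

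Otx2 encodes the homeodomain transcription factor needed for choroid plexus to form. Its haloperidol brains ranged from 7.15 to 7.82 with a median of 7.46, and its placebo brains from 6.14 to 7.65 with a median of 7.49. The 9 placebo arrays other than 1L spanned 7.40 to 7.65. The change was 0.14 (SE 0.14, limma adjusted p = 0.452), and 0.0039 with a 95% interval of -0.15 to 0.16 without placebo 1L.

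**Figure D3:**
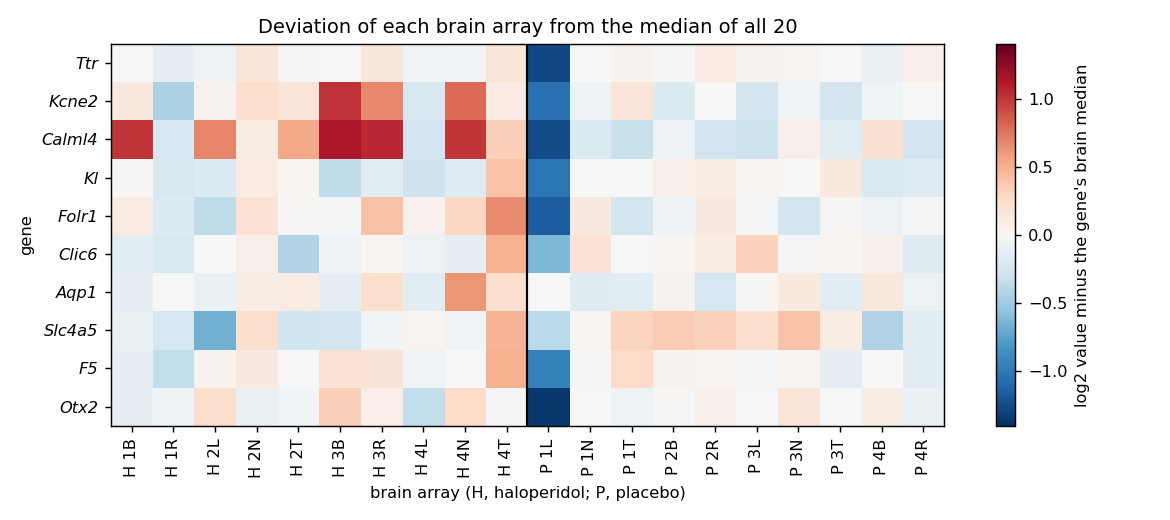
Log2 value of each gene (rows) on each brain array (columns, haloperidol left of the line and placebo right) minus that gene's median over all 20 arrays. Placebo 1L is blue for 9 of the 10 genes, haloperidol 4T is red for 9, and Calml4 and Kcne2 each have their 3 highest values in haloperidol 3B, 3R and 4N. Calml4 in haloperidol 1B nearly equals 4N, both at 7.35, while Kcne2 reads 6.44 in 1B and 7.10 in 4N.

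Placebo 1L was lower than the median of the other 9 placebo brains by the most for Otx2, at -1.36 log2 units or 2.57-fold lower, and for Ttr, at -1.31 or 2.47-fold lower. Folr1 followed at -1.13, Calml4 at -1.05, Kl at -1.02, Kcne2 at -0.99 and F5 at -0.95. Clic6 at -0.65 and Slc4a5 at -0.62 deviated less, and Aqp1 was 0.09 higher. Placebo 1L was the lowest of the 20 brain arrays for 8 of the 10 members, against 13.3% of all genes tested. It lay more than 0.5 below every other brain array for 7 of the 10, against 0.717% of all genes. Since the array was singled out for low values in several members, these counts describe it and test nothing.

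Other lists moved on the same array. Of 26 further choroid plexus genes tested, 10 were lowest in placebo 1L. Sostdc1, which encodes a secreted inhibitor of BMP and Wnt signals, read 5.49 there, and the other placebo brains had a median of 7.02. Of the 7 brain endothelium genes, 6 were lowest in placebo 1L, and their mean level there was 7.80, against 8.15 to 8.60 over the haloperidol brains and 8.16 to 8.48 over the other placebo brains. Of the 9 ependymal genes with a probe, 4 were lowest there, and of the 10 genes of meninges and stroma 0 were. Of the pituitary genes, 8 of 10 had a probe. Their mean level was 6.36 in placebo 1L, 4.52 to 6.19 in haloperidol brains and 4.46 at the lowest in the other placebo brains. Placebo 1L was the highest of the 20 brain arrays for 3 of the 8. Lhb at 5.19 and Pitx1 at 4.29 lay below their brain medians of 5.33 and 4.38 there. Prl, the prolactin gene, read 8.90 in haloperidol 1R, 8.95 in haloperidol 2N and 9.03 in placebo 1L. On the arrays high in Gh, the members' median deviation from their brain medians was -0.22 in haloperidol 1R, 0.12 in 2N and -0.0093 in 3B, and -1.03 in placebo 1L and 0.085 in 2R. Haloperidol 3B was also the array with the highest Calml4 and Kcne2. The part of these other tissues in the member values was not tested.

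Haloperidol 4T was the highest of the 20 arrays for 6 of the 10 members, namely Ttr, Kl, Folr1, Clic6, Slc4a5 and F5, against 11.7% of all genes. For Ttr the margin was small, with 12.4224 in 4T and 12.4188 in haloperidol 2N. Array 4T was singled out from these same data, and the members' values on it are not independent of each other. The count thus describes the array and tests nothing. The hepatocyte list, of which 9 of 10 genes had a probe, averaged 7.73 in 4T, 4.04 to 4.38 in the other haloperidol brains and 3.99 to 4.28 in the placebo brains. Apart from Alb, Ahsg read 8.53, Apoa1 8.52, Cyp2e1 8.37, Fgb 7.43, Fgg 6.86 and Apob 6.18 in 4T, each over 2 log2 units above its brain median. Ttr and F5 are also liver genes. Kl, Folr1, Clic6 and Slc4a5 were not among the genes tested in liver, where the mean of each lay under the limit for dim genes of 3.92. Whether liver tissue had a part in any of the 4T values was not tested. Without 4T the change was 0.11 for Ttr, 0.088 for F5, 0.22 for Folr1, -0.03 for Kl, -0.10 for Clic6 and -0.23 for Slc4a5, and none of them was called.

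The SD over haloperidol arrays was set against that over placebo arrays, as a ratio and with no test. With all arrays its median was 0.849 over the members and 1.39 over all genes tested. Without placebo 1L it was 1.83 over the members, all 10 of them over 1, and 1.53 over all genes, of which 83.7% were over 1, so the direction for the members turned on that array. Without placebo 1L the ratio was 3.27 for Kcne2, 2.91 for Calml4, 2.53 for Otx2 and 1.13 for Slc4a5.

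Members were then related to Ttr over arrays, which share their normalization and RNA sample. The share of all genes so related to Ttr was not computed, so the counts below do not set the members apart. Over the 20 brain arrays, 7 of 9 relations passed a two-sided permutation test of Pearson's r with Benjamini-Hochberg adjustment, and their highest values were 0.86 for F5, 0.85 for Otx2, 0.84 for Kl and 0.83 for Folr1. Without placebo 1L, 4 of 9 passed, with r of 0.63 for F5 (rho 0.43, permutation p = 0.00364, adjusted 0.0193), 0.62 for Slc4a5 (rho 0.60, p = 0.00465, adjusted 0.0193), 0.60 for Folr1 (rho 0.47, p = 0.00644, adjusted 0.0193) and 0.57 for Kl (rho 0.60, p = 0.0103, adjusted 0.0232). For Otx2 r was -0.08 (rho -0.18) and for Calml4 0.0092 (rho -0.12). Leaving out both arrays farthest from the Ttr median, placebo 1L and haloperidol 4T, gave r of 0.51 for F5, 0.55 for Slc4a5, 0.48 for Folr1 and 0.44 for Kl. Then 0 of 9 passed the adjusted permutation test, while the unadjusted permutation p was 0.0283 for F5, 0.0177 for Slc4a5 and 0.0454 for Folr1. Within haloperidol, 4 of 9 passed by Pearson's r, F5 at 0.79, Folr1 at 0.79, Slc4a5 at 0.71 and Clic6 at 0.67, and within placebo 0 of 9 did. By rho none passed within haloperidol, where the lowest adjusted permutation p was 0.0913, for F5 and Folr1. Array 4T was the highest for Ttr and for each of these 4 genes, and r within haloperidol was not computed without it.

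Of the 45 pairs of members, Kcne2 and Calml4 varied together over the arrays without placebo 1L, with Pearson r of 0.80 (permutation p = 5e-05, adjusted 0.00225) and rho of 0.63 (adjusted permutation p = 0.0781). Without the 2 arrays farthest from the Kcne2 median r was 0.75 (adjusted permutation p = 0.0108). Within the haloperidol arrays r was 0.83 (adjusted permutation p = 0.0597), and within the 9 placebo arrays other than 1L it was -0.12 (permutation p = 0.743). Neither passed the adjusted test within a treatment, and the difference between the treatments was not tested. Kl and Slc4a5 had r of 0.70 (adjusted permutation p = 0.0200) and rho of 0.69 (adjusted permutation p = 0.0781) without placebo 1L, with 0.65 within haloperidol and 0.79 within placebo without 1L, and r was 0.64 (adjusted permutation p = 0.0703) without the 2 arrays farthest from the Kl median.

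Over all 20 brain arrays, 5 of the 10 members were related to the array median in the adjusted permutation test of Pearson's r. Each had lower values at higher medians. The share of all genes so related was not computed, so this count does not set the members apart. Over those brain arrays Pearson's r with it was -0.70 for Calml4 (rho -0.67, permutation p = 0.00055, adjusted 0.00275 over 10 relations) and -0.69 for Kcne2 (rho -0.76, adjusted permutation p = 0.00275). Without the arrays farthest from its median, haloperidol 4N and 4T, r was -0.71 for Calml4 and -0.68 for Kcne2. The others were Folr1 at -0.60 (rho -0.58, adjusted permutation p = 0.0122), Aqp1 at -0.52 (rho -0.36, adjusted permutation p = 0.0426) and F5 at -0.49 (rho -0.38, adjusted permutation p = 0.0494). Without the same arrays their r was -0.45, -0.11 and -0.42, with none passing. Within haloperidol, r was -0.46 (adjusted permutation p = 0.233) for Calml4 and -0.58 (adjusted permutation p = 0.149) for Kcne2, and within placebo -0.29 and -0.50, so neither relation passed within a treatment. Folr1 within haloperidol had r of -0.79 (adjusted permutation p = 0.0835) and rho of -0.90 (adjusted permutation p = 0.0077).

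**Figure D4:**
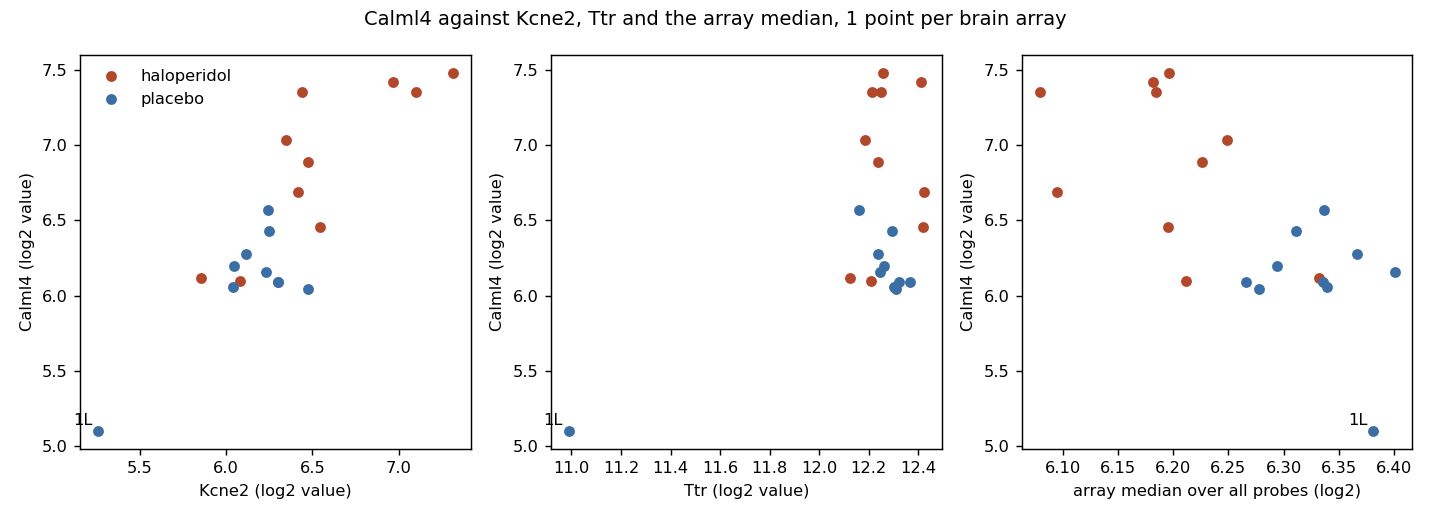
Log2 value of Calml4 against the log2 values of Kcne2 (left) and Ttr (middle) and against the array median over all probes (right), 1 point per brain array, haloperidol in red and placebo in blue. Calml4 and Kcne2 are both high on 3B, 3R and 4N (Pearson r of 0.80 over all arrays without placebo 1L), Calml4 against Ttr has r of 0.0092 once placebo 1L is set aside, and the haloperidol arrays lie at lower array medians.

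The genes most like the members were sought among all others tested in brain, by Pearson's r with the mean standardized deviation of the members after group means were taken out. Over the 20 arrays these were Sostdc1 at 0.95, Lhx9 and Plch1 at 0.90, AW551984 at 0.88 and Slc6a3 at 0.87. Without placebo 1L they were Tmem176b and Sostdc1 at 0.84, Slc24a5 and Fam216b at 0.78 and Dnali1 at 0.77. Of the first 5, Sostdc1 was thus named again. A score of Calml4 and Kcne2 alone, a pair picked for its relation above, gave other genes without placebo 1L. These were B3gnt2 at 0.96, Efcab1 at 0.94 and Clns1a, Poglut1 and Lyrm2 at 0.93, none of them in the choroid plexus lists used here. Genes outside those lists thus shared the variation of the pair. The members were left out of this ranking, so it does not show how the other members compare, and nothing was tested.

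From lists of other choroid plexus genes, 32 of 39 had a probe and 26 were tested in brain, of which 2 rose and 3 fell, with a median change of 0.08, where 15.2% of all genes tested were called in each direction. Ecrg4, which encodes the secreted peptide precursor augurin, averaged 7.37 ± 0.46 (SD, n = 10) with haloperidol and 6.74 ± 0.39 (n = 10) with placebo, a change of 0.62 (limma adjusted p = 0.0113). Htr2c, the serotonin 2C receptor gene, changed by 0.19 (adjusted p = 0.0408), and by 0.16 (adjusted p = 0.0751) without placebo 1L. Of the 10 transport genes tested, 2 fell, Slc4a10, a sodium bicarbonate transporter also found in neurons, by 0.23 (adjusted p = 0.00487) and Trpm3, a cation channel, by 0.23 (adjusted p = 0.0292). Meis1, a homeodomain factor, fell by 0.38 (adjusted p = 0.0112). Without placebo 1L, 1 rose, Ecrg4, and 5 fell, against 13.3% and 13.8% of all genes, the added genes being Slc12a2, a sodium potassium chloride cotransporter, at -0.16 (adjusted p = 0.0405) and Slc29a4, a monoamine transporter, at -0.27 (adjusted p = 0.0129).

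In liver, 4 of the 10 members passed the filter on dim genes, and 0 of 4 were called, as were 0 of the 12547 genes tested in limma (0%), of which 1316 had an unadjusted p under 0.05. Fitting all 38 arrays together called 40 genes in liver and again 0 members. Ttr ranged from 12.69 to 12.90 with haloperidol and from 12.67 to 12.82 with placebo, a change of 0.04 (SE 0.051, limma adjusted p = 0.798). F5 ranged from 10.57 to 10.89 with haloperidol and from 10.49 to 10.81 with placebo, a change of 0.09 (SE 0.063, adjusted p = 0.591). Both genes are made by hepatocytes, and their groups overlapped. Aqp1 changed by -0.07 (adjusted p = 0.789) and Calml4, at 4.58 ± 0.23 (SD, n = 9) with haloperidol and 4.53 ± 0.11 (n = 9) with placebo, by 0.05 (adjusted p = 0.881). The other 6 averaged 2.79 to 3.86 with haloperidol and 2.78 to 3.83 with placebo.

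The effects in the tissues were compared by a contrast over all 38 arrays, in which 23.0% of 10869 genes were called. Calml4 was the 1 member of 4 called, with a change lower in liver than in brain by -0.74 (SE 0.22, limma adjusted p = 0.0149). Calml4 was dim in liver, at 4.58 with haloperidol and 4.53 with placebo, where the array medians averaged 4.89 and 4.80. Whether so low a level limited the change seen in liver was not tested. The contrast was not fitted with the array median or the first component as a covariate, with which the brain call was lost. Without the brain array placebo 1L the difference was -0.63 (adjusted p = 0.0231). The differences were -0.20 (adjusted p = 0.244) for Aqp1, -0.09 (adjusted p = 0.694) for Ttr and -0.04 (adjusted p = 0.845) for F5.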

How the data were processed

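Per the submitters' processing notes, the authors used Affymetrix Expression Console and its RMA method, whose deposited output is in log2 units. RMA usually gives arrays a common distribution, but sorted values of single brain arrays differed from their mean by up to 0.208, and array medians differed between the treatments. The tissues' distributions differed by up to 1.42, so no level was set across tissues. Of 35556 probes, 21218 had 1 gene symbol in GEO's platform annotation, and the probe of highest mean was kept for each of 18820 genes. The 33.3% dimmest genes of a tissue were left out, and 12547 were tested.

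Haloperidol was compared with placebo by limma 3.58.1 in R 4.3.3, two-sided, with Benjamini-Hochberg adjustment over all genes tested and a threshold of 0.05. Relations used permutation tests of 100000 resamples (scipy 1.17.1). The fits were tested on simulated data. The members and gene lists were chosen with earlier results of these data known. All members were named. Other genes were drawn from up to 3 of smallest p per other choroid plexus list and the marker of highest level per other list. Markers over 2 log2 units above their median on a named array and the 5 genes most alike were added. Not every gene under that rule was named, and Slc29a4, Lhb and Pitx1 were named outside it. Some settings were added after seeing the data: the array median subtracted or as a covariate without placebo 1L, and relations between members or to the array median. A brain and a liver array of the same treatment shared each of 18 tags, and the labels do not say what a tag marks. Same-tag deviations correlated at -0.32 to 0.25, which cannot show whether 2 arrays came from the same mouse. Tags were not taken as pairs in the main fits. P-values measure the spread between these arrays, whose number limits precision.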

Additional observations from a re-analysis of the deposited data

Results flagged for a closer look

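Of 28 gene and group combinations examined for a single array set apart by a gap large against the group's range, 10 showed one, where chance flags about 1 in 20 groups. Of these, 8 were the brain array placebo 1L as the lowest of its group. Its values were 10.99 for Ttr, 5.26 for Kcne2, 5.10 for Calml4, 6.59 for Kl, 6.16 for Folr1, 6.46 for Clic6, 5.03 for F5 and 6.14 for Otx2. These 8 values come from 1 array and are not independent of each other. The array was also known beforehand to be low in several members, so the flags restate that.

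The other 2 were Aqp1 in the brain array haloperidol 4N, the highest of its group at 7.06, and Calml4 in the liver array placebo 4R, the highest of its group at 4.78. The change of Calml4 differed between the tissues, by -0.74 for liver minus brain in limma's test of the difference itself (adjusted p = 0.0149). In that test 23.0% of all genes were called. It was not run with the array median or the first component as a covariate, and in brain either one took the call away. Calml4 was also dim in liver, with group means of 4.58 and 4.53 under array medians that averaged 4.89 and 4.80.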

How the results depend on the processing

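Against 2 members called in brain, 1 was called with no filter on dim genes, 1 with the Wilcoxon rank sum test, and 1 with 3 arrays left out at once (haloperidol 4N, haloperidol 4T, placebo 1L). Leaving out 1 array at a time gave 1 to 2. With the lowest 50% of genes left out 0 were called, but that filter removed Calml4 and Kcne2 before the test and left 4 other members, so it bears on neither. Subtracting the array median called 4, Folr1 (adjusted p = 0.0335) and Aqp1 (adjusted p = 0.0377) besides, but moved the median of all genes to 0.12 and called 4088 genes higher and 467 lower, against 1911 and 1905. Without placebo 1L as well, a setting added after seeing the data, it called 2, Calml4 and Kcne2. The array median as a covariate called 0 members and 0 genes in limma (550 genes at unadjusted p under 0.05), and the first component, with 53.2% of the variance, also 0 and 0 (913 genes). The array median as a covariate without placebo 1L, likewise added after seeing the data, called 0 members and 0 genes (583 genes), with Calml4 at 0.37 (adjusted p = 0.892). Without the 3 named arrays 2518 genes were called, against 3816. Calml4 was called in 30 of 32 other settings and Kcne2 in 13 of 32, those added after seeing the data aside.

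Signs turned for uncalled values, and for Kcne2. With the array median as a covariate the change was -0.11 for Ttr, -0.070 for Kcne2, -0.20 for Kl, -0.11 for Folr1, -0.075 for Aqp1, -0.17 for F5 and -0.050 for Otx2. With placebo 1L also left out these were -0.098, -0.065, -0.20, -0.10, -0.075, -0.16 and -0.042 in the same order. The first component gave -0.13 for Kcne2, -0.0088 for Aqp1 and -0.17 for Otx2. Without the 3 named arrays Ttr was at -0.015, Kl at -0.13, F5 at -0.0064 and Otx2 at -0.020. Kl was at -0.0048 with the tag digit as a block and -0.039 with array weights, and Clic6 at 0.096 with the array median subtracted and 0.022 without placebo 1L as well. Leaving out 1 array gave -0.0039 to 0.15 for Ttr, -0.082 to 0.050 for Kl and -0.11 to 0.0013 for Clic6. In liver, subtracting the array median gave -0.047 for Ttr and -0.040 for Calml4, which ran from -0.0025 to 0.077 over the arrays left out, and 0 members were called in each alternative run. Without the brain array placebo 1L the difference between tissues was 0.044 for Ttr and 0.051 for F5. With a replicate block of the shared tag, which the data did not show to pair arrays, the difference for Calml4 was -0.74 (adjusted p = 0.0170) and 1 member was again called.

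Of 9 relations to Ttr, 7 passed by Pearson's r over all arrays, 4 without placebo 1L, 4 within haloperidol, 0 within placebo and 0 without the 2 far arrays. By rho none passed within haloperidol. In those subsets r was -0.083, -0.048 and -0.066 for Otx2 (without placebo 1L, within haloperidol, without the far arrays), -0.21 and -0.029 for Aqp1 (within placebo, without the far arrays) and -0.015 for Calml4 (without the far arrays). The cause of these shifts was not tested.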
